A study of Mus musculus with 7 samples.

Results

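The major histocompatibility complex (MHC) genes described here are 10 of the 54347 genes in a table of estimated counts from sorted long-term haematopoietic stem cells (LT-HSCs) of the mouse. They were chosen by symbol: the class I genes B2m, H2-K1, H2-D1, H2-Q7 and H2-T23, and the class II genes Cd74, H2-Aa, H2-Ab1, H2-Eb1 and H2-DMa. LT-HSCs are the rare marrow cells that can rebuild all blood lineages for life. They came from 3 Emcn-/- females (KO: ko_306, ko_314 and ko_320) and 4 Emcn+/+ littermate females (WT: wt_284, wt_290, wt_310 and wt_312), all of the strain labelled C57BL/6N-EMCN em1(IMPC)Wtsi /WtsiH. Emcn encodes endomucin, a cell-surface sialomucin. Each library held 3000 to 5000 cells of 1 mouse. The sources used here give neither the age of the mice nor the part of Emcn that the allele removes.

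Class I molecules sit on nearly all nucleated cells. A heavy chain pairs with the invariant light chain beta-2 microglobulin and shows peptides from the cell's interior to CD8 T cells. Class II molecules are pairs of an alpha and a beta chain that show peptides from endosomes to CD4 T cells. They are typical of dendritic cells, B cells and macrophages, and mouse haematopoietic stem cells are known to carry some class II as well. The trans-activator NLRC5 acts on class I promoters and CIITA on class II promoters. Both work through the conserved X and Y boxes, where the RFX factors and NF-Y bind.

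These promoter elements are shown for B2m, for the class I heavy chains H2-K1 and H2-Q7, and for the class II chains H2-Aa and H2-Eb1, to set the known elements of both classes beside each other. The sequences are the 180 bases before the (most upstream) start site in the RefSeq promoter table (GRCm38.p6), 5′ to 3′ on the gene's own strand. Capitals mark CCAAT, the core of the Y box, on either strand (ATTGG on the other), GGGATTCCC, the core of the enhancer A sequence that NF-kB factors bind, GAAANNGAA, an interferon-type element, and GNNACNGAT, an X box pattern.

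B2m (chr2:122147507-122147686, plus strand): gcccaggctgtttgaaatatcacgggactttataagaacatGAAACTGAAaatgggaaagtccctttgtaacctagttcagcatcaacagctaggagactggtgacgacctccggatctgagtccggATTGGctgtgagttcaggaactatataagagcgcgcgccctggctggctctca
H2-K1 (chr17:34000348-34000527, minus strand): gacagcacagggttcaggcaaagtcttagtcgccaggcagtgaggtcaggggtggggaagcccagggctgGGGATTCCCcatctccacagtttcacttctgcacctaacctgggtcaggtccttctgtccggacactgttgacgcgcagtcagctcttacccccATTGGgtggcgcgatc
H2-Q7 (chr17:35438975-35439154, plus strand): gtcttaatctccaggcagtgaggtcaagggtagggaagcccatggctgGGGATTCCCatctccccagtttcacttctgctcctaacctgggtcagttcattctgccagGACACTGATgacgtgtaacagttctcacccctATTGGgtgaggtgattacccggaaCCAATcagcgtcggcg
H2-Aa (chr17:34287824-34288003, minus strand): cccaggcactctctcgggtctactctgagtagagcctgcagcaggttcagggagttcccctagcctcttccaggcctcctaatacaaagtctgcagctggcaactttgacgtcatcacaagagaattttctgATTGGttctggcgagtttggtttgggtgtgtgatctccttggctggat
H2-Eb1 (chr17:34305687-34305866, plus strand): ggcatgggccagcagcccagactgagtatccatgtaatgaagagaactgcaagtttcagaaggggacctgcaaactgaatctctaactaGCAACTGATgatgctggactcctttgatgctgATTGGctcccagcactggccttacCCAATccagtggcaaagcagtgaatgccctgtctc

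The table held windows of 300 bases around the start for 8 of the 10 members. Both strands were searched. GGGATTCCC stood in the windows of H2-K1, H2-D1 and H2-Q7, and in 0.353% of all 32851 windows. CCAAT was found in all 8 members, against 37.4% of all windows. GAAANNGAA was found in B2m and H2-T23, against 8.56% of all windows. GNNACNGAT was found in H2-K1, H2-D1, H2-Q7 and H2-Eb1, against 7.82% of all windows, and in H2-K1 it overlaps a CCAAT and lies outside the bases printed. A match describes these letters only, an element with other letters is missed, and binding of a factor was not measured.

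Of the 10 genes, 8 lie in the H2 complex on chromosome 17. The positions are those of GENCODE M21 on GRCm38. H2-K1 (ENSMUSG00000061232.16) spans 33996017 to 34000347. H2-DMa, H2-Ab1, H2-Aa and H2-Eb1 follow between 34119541 and 34316674. H2-D1 (35262730 to 35267499), H2-Q7 (35439155 to 35443773) and H2-T23 (36029773 to 36032855) lie further along. B2m (ENSMUSG00000060802.8) is on chromosome 2 from 122147686 to 122153083, and Cd74 (ENSMUSG00000024610.15) is on chromosome 18 from 60803848 to 60812652. All 10 are annotated as protein-coding.

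Library totals were 11101774, 6648881 and 8071035 counts in ko_306, ko_314 and ko_320, and 6444134 to 10322741 counts in WT. Emcn had 1, 0 and 0 counts in KO and 130 to 327 counts in WT, so the genotypes of the libraries matched their labels. The 10 stem cell markers, among them Kit and Slamf1, were detected in every library and summed to 1730 to 1996 CPM in KO and 1256 to 1957 CPM in WT. The lowest of these sums was in wt_284, and the other WT libraries had 1823 to 1957 CPM. CPM here are counts divided by TMM-scaled library totals. The library wt_284 stood apart. Its granulocyte markers summed to 12426 CPM, against 65.8 to 493 CPM in KO and 147 to 1073 CPM in the other WT libraries. Its B-lineage markers summed to 199 CPM, against 12.3 to 15.2 CPM in KO and 11.8 to 21.5 CPM in the other WT libraries. Erythroid markers summed to 142 to 232 CPM in KO and 191 to 3206 CPM in WT, and T cell markers to 4.31 to 6.56 CPM in KO and 3.08 to 17.9 CPM in WT, both highest in wt_284.

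All 10 members passed the filter on low counts, and none passed the test between KO and WT. The test was edgeR's quasi-likelihood test with Benjamini-Hochberg adjustment over all 15372 genes tested, at a threshold of 0.05. It called 1 gene, Emcn (adjusted p 1.1e-04, lower in 3 of 3 KO libraries), so the background was 0.00651% of genes. Adjusted p-values of the members lay between 0.992 and 0.997. At an unadjusted p under 0.05 there were 2 members, Cd74 and H2-Eb1, against 3.27% of all genes (1.99% lower in KO). Groups that do not overlap were found for the same 2 members, both with every KO library below every WT library, against 2.43% of all genes in that direction and 4.86% in either direction. DESeq2 called 0 members against 0.0651% of genes, and put Cd74 and H2-Eb1 at an unadjusted p under 0.05 against 4.42% of genes. With no filter on low counts 0 members were called against 0.272% of genes, and Cd74 alone was at an unadjusted p under 0.05 against 5.98% of genes. Limma-voom with quality weights called 0 genes, and Cd74 alone was at an unadjusted p under 0.05 against 3.05% of genes. The median log2 fold change (KO minus WT) was 0.10 over the 5 class I genes and -0.27 over the 5 class II genes, against -0.02 over all genes tested.

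**Figure D1:**
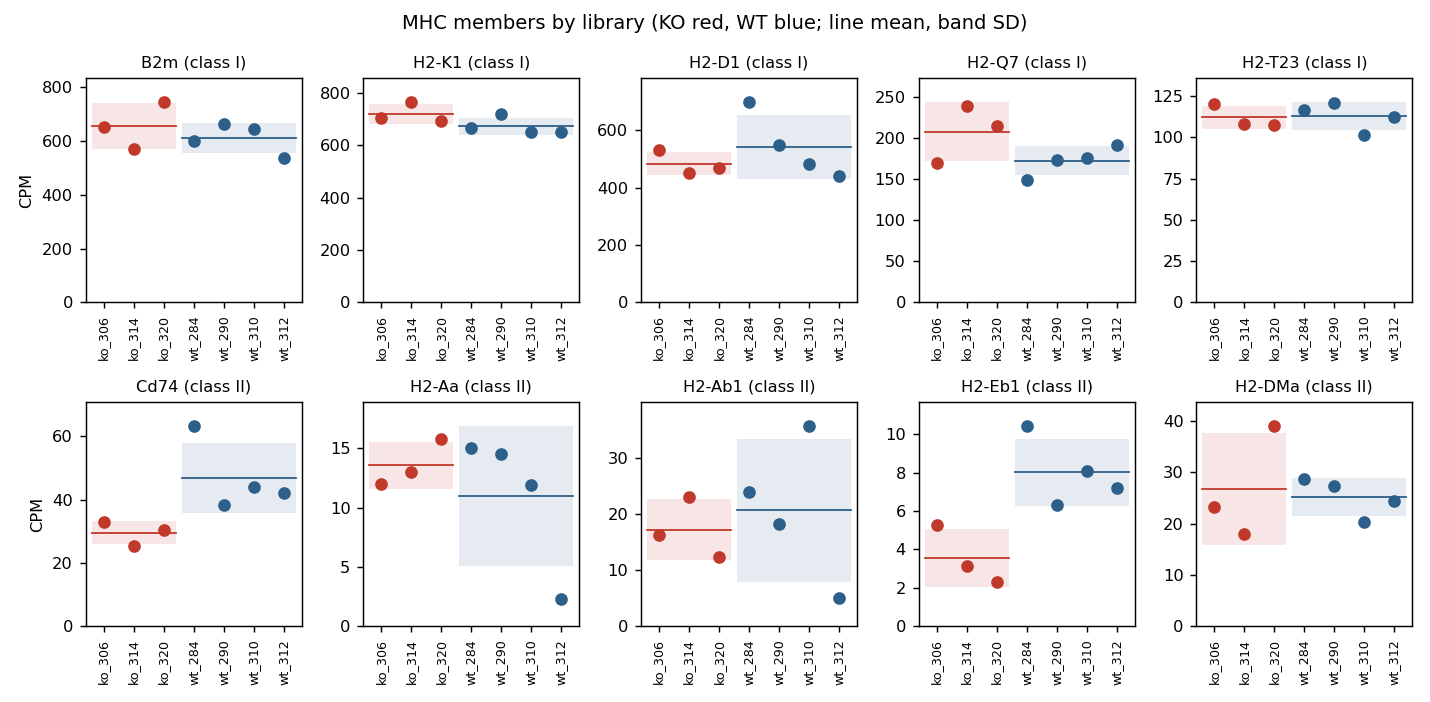
CPM of each of the 10 members in each library, KO libraries in red on the left and WT libraries in blue on the right, with the group mean as a line and 1 SD as a band. Class I genes (upper row) spread little between libraries. Cd74 and H2-Eb1 lie lower in each KO library than in any WT library, and H2-Aa and H2-Ab1 are lowest in wt_312.

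Class I genes were abundant and even across the 7 mice. B2m, the light chain shared by all class I molecules of this kind, had 652, 571 and 742 CPM in ko_306, ko_314 and ko_320. It had 598, 662, 646 and 535 CPM in wt_284, wt_290, wt_310 and wt_312. The groups overlapped, with the highest value in ko_320 and the lowest in wt_312. The means were 655 ± 86 CPM in KO (SD, n = 3) and 610 ± 57 CPM in WT (SD, n = 4). The log2 fold change was 0.10 ± 0.14 (SE), with a 95% interval from -0.20 to 0.40.

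H2-K1, which encodes the classical heavy chain H-2K, had 705, 763 and 692 CPM in KO and 666, 718, 651 and 649 CPM in WT. It varied least of the members, with a coefficient of variation of 5.92% over the 7 libraries. Its log2 fold change was 0.10 (95% interval -0.16 to 0.36). H2-D1, the other classical heavy chain of this strain, had 529, 451 and 469 CPM in KO and 696, 549, 482 and 440 CPM in WT. Its highest level was in wt_284, and its log2 fold change of -0.17 (-0.52 to 0.19) went to -0.02 without that library.

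The non-classical heavy chains stood at lower levels and differed in spread, at 16.2% for H2-Q7 and 6.4% for H2-T23 (coefficient of variation over 7 libraries). H2-Q7, which encodes the Qa-2 antigen, had 169, 239 and 214 CPM in KO and 149, 173, 176 and 191 CPM in WT. Of the 3 KO libraries, ko_314 and ko_320 exceeded every WT library, while ko_306 lay within the WT range. The log2 fold change was 0.27 ± 0.16 (SE), with an interval from -0.07 to 0.61. H2-T23, which encodes Qa-1, the ligand of the CD94/NKG2 receptors of natural killer cells, had 120, 108 and 108 CPM in KO and 116, 121, 101 and 112 CPM in WT. These values overlapped throughout, and the interval of the log2 fold change (-0.01) ran from -0.32 to 0.30. An antisense transcript over H2-T23, A930015D03Rik, had 6 to 28 counts per library. For each of the 5 class I genes the interval excluded a change of 2-fold in either direction.

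Heavy-chain transcripts resemble each other, and estimated counts can be moved between them. Of all distinct stretches of 31 bases in the annotated transcripts of H2-Q7, 39.1% also occur in transcripts of another gene. H2-Q10 holds 22.4%, counted whether or not further genes hold them too. The share was 26.7% for H2-D1, 24.5% for H2-T23 and 22.8% for H2-K1. It was 0% for B2m and H2-DMa and at most 1.41% for the other class II members. The split between heavy chains is therefore less certain than their sum. The sum over all 23 H2 class I heavy-chain genes listed in the table was 2070, 2144 and 2009 CPM in KO and 2131, 2073, 1932 and 1995 CPM in WT. The 4 heavy chains among the members held 73.4% ± 0.5 of it in KO (SD, n = 3) and 73.6% ± 2.9 in WT (SD, n = 4).

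**Figure D2:**
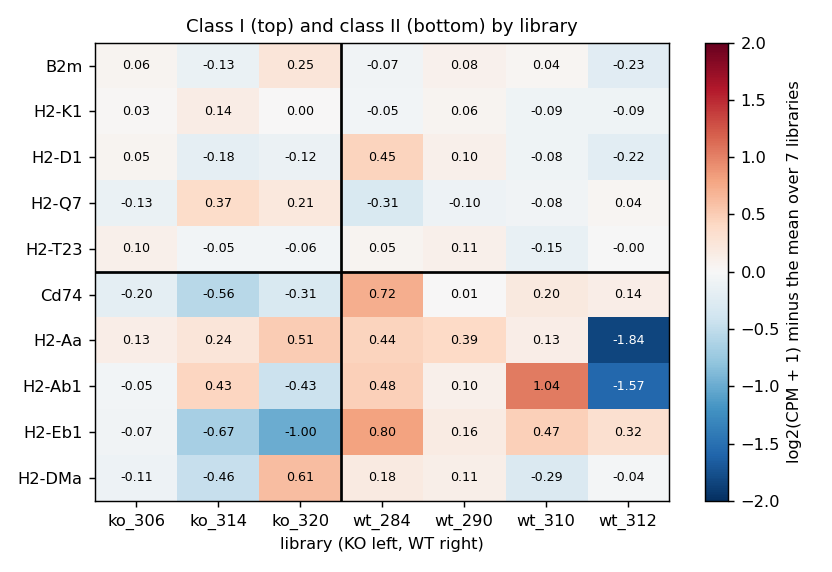
log2(CPM + 1) of each member minus its mean over the 7 libraries, class I above the line and class II below it, KO columns left of WT columns. Class I values stay between -0.31 and 0.45. H2-Aa and H2-Ab1 reach -1.84 and -1.57 in wt_312, while Cd74, H2-Eb1 and H2-DMa do not share that drop.

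Class II genes were present at far lower levels and did not all share 1 pattern across libraries. Of these, Cd74 and H2-Eb1 were both highest in wt_284, and H2-Aa and H2-Ab1 were both lowest in wt_312. Cd74 encodes the invariant chain, which guides class II molecules to the endosome and also serves as a receptor for the cytokine MIF. Its estimated counts were 382, 171 and 239 in KO and 522, 405, 287 and 327 in WT. That is 32.9, 25.5 and 30.4 CPM in KO and 63.3, 38.2, 43.9 and 42.0 CPM in WT. Every KO library was lower than every WT library, also with wt_284 left out. The means were 29.6 ± 3.8 CPM in KO (SD, n = 3) and 46.8 ± 11.2 CPM in WT (SD, n = 4). The log2 fold change was -0.66 ± 0.23 (SE), with a 95% interval from -1.16 to -0.16. In edgeR the unadjusted p was 0.0136 and the adjusted p 0.992, so the difference did not pass. Over 12 alternatives the adjusted p ran from 0.527 to 1.00. Without wt_284 the log2 fold change was -0.48, with an unadjusted p of 0.0486 in edgeR. Without ko_314 it was -0.55, and the unadjusted p of 0.0586 was no longer under 0.05.

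H2-Eb1, the beta chain of the I-E molecule, had 5.25, 3.13 and 2.29 CPM in KO and 10.4, 6.33, 8.10 and 7.19 CPM in WT. These levels rest on 61, 21 and 18 counts in KO and 86, 67, 53 and 56 counts in WT. All KO values lay lower than all WT values, also without wt_284. The log2 fold change was -1.16 ± 0.51 (SE), with a 95% interval from -2.27 to -0.05 (edgeR, unadjusted p 0.0424, adjusted p 0.992). Without wt_284 it was -1.002, with an unadjusted p of 0.116. The unadjusted p was also above 0.05 without ko_314, ko_320, wt_290 or wt_310, at 0.0539 to 0.121. The partner chain H2-Ea, which mice of the C57BL/6 background are known not to transcribe because of a promoter deletion, had 0 counts in all 7 libraries. A count of 0 allows up to 0.258 to 0.458 CPM per library (3 counts).

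Beside Cd74 and H2-Eb1 stand the markers of cells known for class II (dendritic, B-lineage, monocyte and macrophage), and those of other cells. The 9 dendritic cell markers summed to 5.34, 6.11 and 8.15 CPM in KO and to 31.9, 9.25, 25.4 and 14.4 CPM in wt_284, wt_290, wt_310 and wt_312, and these groups did not overlap. The sums rest on few counts, with 5 of the 9 markers at 0 in ko_314. Zbtb46 was the largest of the 9 in ko_306, ko_320, wt_290, wt_310 and wt_312. Singly it overlapped, at 2.93, 1.19 and 5.09 CPM in KO and 7.64, 4.44, 12.8 and 7.06 CPM in WT. Of the 2 among these markers that passed the filter on low counts, 0 had every KO library below every WT library. Clec9a, which did not pass the filter, did, at 0.517, 0 and 0.127 CPM in KO and 0.849, 0.755, 11.2 and 1.41 CPM in WT. Batf3, Ccr7 and Cd209a had 0 counts in every KO library and also in wt_310 and wt_312, and Clec10a had 10, 24 and 0 counts in KO and 14, 7, 3 and 0 counts in WT. The 9 B-lineage markers summed to 12.3 to 15.2 CPM in KO and 11.8 to 199 CPM in WT, and these groups overlapped. The 8 monocyte and macrophage markers summed to 8.91 to 18.6 CPM in KO and 6.68 to 322 CPM in WT, and the 10 granulocyte markers to 65.8 to 493 CPM in KO and 147 to 12426 CPM in WT. Singly, 1 of 6 tested monocyte and macrophage markers (Ly6c2) had every KO library below every WT library. The same held for 1 of 10 tested granulocyte markers (Mpo) and 0 of 3 tested B-lineage markers, against 2.43% of all genes tested. It also held for 1 of 10 tested stem cell markers (Hoxb5), 1 of 7 tested erythroid markers (Hbb-bt) and 0 of 2 tested T cell markers. The part of such cells in the class II values was not tested, and in these bulk samples fewer cells of a type and less RNA per cell cannot be told apart.

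H2-Aa and H2-Ab1 encode the alpha and beta chains of I-A, the class II molecule that this strain can assemble. H2-Aa had 11.97, 13.0 and 15.8 CPM in KO and 15.0, 14.5, 11.9 and 2.31 CPM in wt_284, wt_290, wt_310 and wt_312. H2-Ab1 had 16.2, 22.97 and 12.2 CPM in KO and 23.9, 18.1, 35.6 and 5.01 CPM in the same WT libraries. Both genes were lowest in wt_312, where they had 18 and 39 counts. The exact Poisson 95% interval there was 1.37 to 3.65 CPM for H2-Aa and 3.56 to 6.85 CPM for H2-Ab1, which covers counting error only and lies under the intervals of all other libraries. In wt_312 Cd74 (42.0 CPM), H2-Eb1 (7.19 CPM) and H2-DMa (24.4 CPM) stood within the range of the other WT libraries. The summed dendritic cell markers of wt_312 were 14.4 CPM, the third highest of the 7 libraries, and its monocyte and B-lineage sums were the lowest.

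Between genotypes both chains overlapped. The log2 fold change of H2-Aa was 0.31 (95% interval -0.80 to 1.41) and that of H2-Ab1 was -0.27 (-1.47 to 0.93). Without wt_312 they were -0.01 and -0.58, and H2-Ab1 turned to 0.12 without wt_310. The interval of H2-Aa includes a level 2-fold higher in KO, and that of H2-Ab1 a level 2-fold lower in KO. H2-DMa, the alpha chain of the DM molecule that loads peptides onto class II, had 23.2, 18.0 and 39.0 CPM in KO and 28.6, 27.3, 20.3 and 24.4 CPM in WT. KO held both the lowest and the highest value, and the log2 fold change was 0.09 (-0.54 to 0.72), or -0.26 without ko_320. Exons of H2-DMa overlap those of Brd2 on the opposite strand, which had 1942 to 3281 counts in KO and 1745 to 3213 counts in WT. The kit keeps strand, but the sources used here do not say whether the quantification used it.

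**Figure D3:**
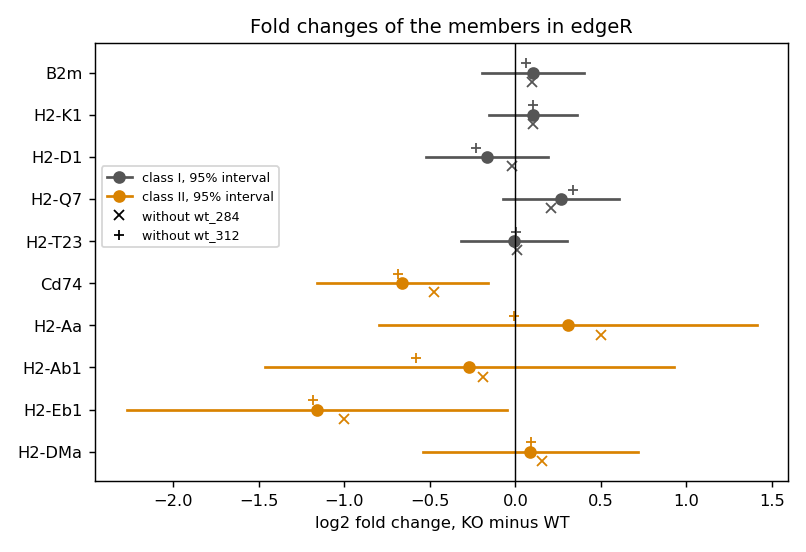
log2 fold change (KO minus WT) of each member in edgeR with its 95% interval, class I in grey and class II in orange. Crosses give the value without wt_284 and plus signs the value without wt_312. Class I intervals are narrow and include 0, and those of Cd74 and H2-Eb1 lie below 0 before adjustment over all genes.

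Levels of different genes were compared per kilobase of annotated exon. This length joins all annotated exons of a gene, and the expressed transcripts can be shorter. In CPM per kilobase over all 7 libraries the order was B2m (732 ± 79, SD), H2-K1 (236 ± 14), H2-D1 (200 ± 34), H2-Q7 (43.9 ± 7.1), H2-T23 (38.9 ± 2.5), Cd74 (23.5 ± 7.4), H2-DMa (7.49 ± 1.99), H2-Ab1 (7.45 ± 3.78), H2-Aa (3.18 ± 1.20) and H2-Eb1 (3.14 ± 1.45). Ranges of neighbours were separate between B2m and H2-K1, between H2-D1 and H2-Q7 and between Cd74 and H2-DMa. H2-K1 exceeded H2-D1 in 6 of 7 libraries, and H2-Q7 exceeded H2-T23 in 4 of 7. H2-DMa exceeded H2-Ab1 in 4 of 7 libraries, and H2-Aa exceeded H2-Eb1 in 4 of 7. H2-Ab1 exceeded its partner H2-Aa in 7 of 7 libraries per kilobase, but in CPM H2-Aa was the higher in ko_320 (15.8 against 12.2). B2m stood at 1.53 to 2.07 times the sum of H2-K1 and H2-D1 per kilobase in KO and at 1.40 to 1.84 times in WT.

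The 2 classes were set against each other within each library. Per kilobase, summed class II was 3.00%, 2.89% and 2.89% of summed class I in ko_306, ko_314 and ko_320. It was 5.10%, 3.42%, 4.31% and 3.50% in wt_284, wt_290, wt_310 and wt_312. Every KO library was lower than every WT library on this scale, also without wt_284. In CPM without regard to length the groups overlapped, at 3.88% to 4.48% in KO and 4.20% to 6.34% in WT. The per-kilobase ratio gives more weight to Cd74, which made up 47.0% ± 3.5 of summed class II in KO (SD, n = 3) and 55.9% ± 7.4 in WT (SD, n = 4).

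With each member given equal weight, as the mean log2(CPM + 1), the class I level was 8.45 ± 0.02 in KO (SD, n = 3) and 8.39 ± 0.07 in WT (SD, n = 4). The class II level was 3.96 ± 0.07 in KO and 4.18 ± 0.49 in WT. It was 4.61, 4.24 and 4.39 in wt_284, wt_290 and wt_310, all above the KO libraries (3.88 to 4.03), and 3.49 in wt_312, below them. The difference between class II and class I levels was -4.50 ± 0.08 in KO and -4.21 ± 0.45 in WT. Here too the groups overlapped through wt_312 alone, at -4.83, against -4.56 to -4.41 in KO and -4.23 to -3.82 in the other WT libraries.

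**Figure D4:**
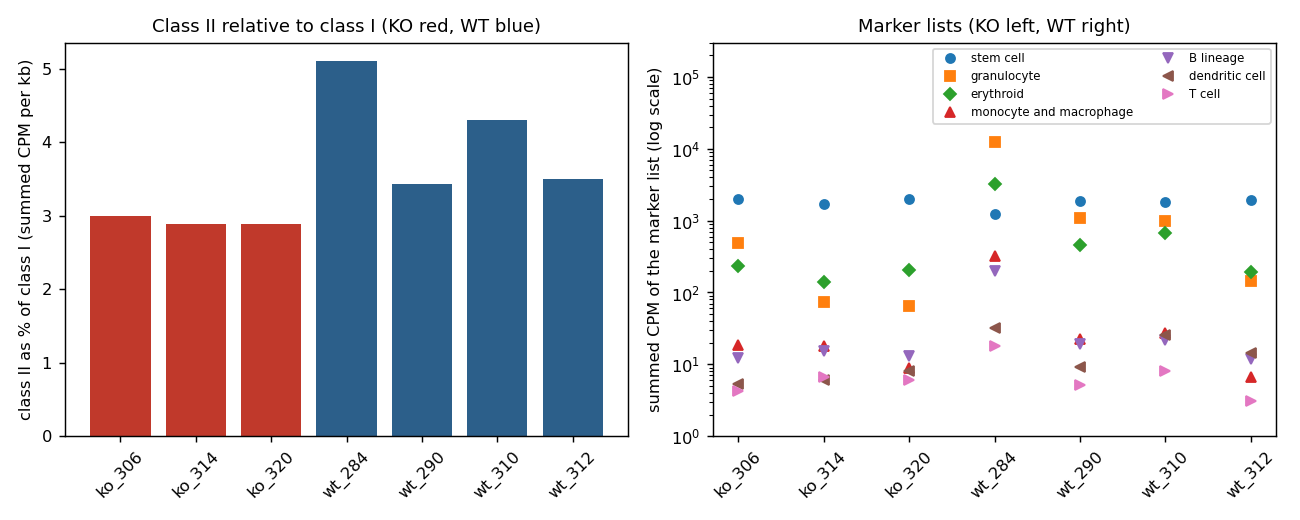
Left, summed class II as a percent of summed class I (CPM per kilobase) in each library, KO in red and WT in blue. The KO bars lie between 2.89% and 3.00% and the WT bars between 3.42% and 5.10%, while summed class II alone overlapped between the groups. Right, summed CPM of the marker lists on a log axis, with wt_284 highest in every list but that of stem cells.

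The other genes of antigen presentation gave no call in edgeR. Of 26 further class I heavy-chain genes listed, 22 were in the table and 12 were tested. Of these 0 passed, with 7 positive and 5 negative log2 fold changes and a median of 0.05. H2-T10 had 0.49 (95% interval -0.12 to 1.10), H2-Q10 had -0.65 (-1.52 to 0.21) and H2-T24 had -0.40 (-1.13 to 0.34), which went to -0.04 without wt_284. At an unadjusted p under 0.05 there were 0 of the 12.

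Of 14 genes for class I peptide supply and loading, 0 passed, with 6 positive and 8 negative values, a median of -0.04 and 0 at an unadjusted p under 0.05. The peptide transporter subunits Tap1 and Tap2 had log2 fold changes of -0.07 (-0.40 to 0.25) and -0.002 (-0.41 to 0.40). Tap1 stood at 106 ± 2 CPM in KO (SD, n = 3) and 112 ± 14 CPM in WT (SD, n = 4). Tapbp, which encodes tapasin, the bridge between transporter and heavy chain, had -0.22 (-0.62 to 0.18), and its relative Tapbpl had 0.40 (-0.17 to 0.97). The chaperone Calr had -0.21 (-0.54 to 0.12). The immunoproteasome subunits Psmb8, Psmb9 and Psmb10 had 0.02 (-0.35 to 0.39), -0.14 (-0.59 to 0.31) and -0.34 (-0.85 to 0.18).

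Of 16 class II partners and processing genes listed, 14 were in the table and 9 were tested, of which 0 passed and 0 had an unadjusted p under 0.05. They had 3 positive and 6 negative values and a median of -0.48. Ctss, the endosomal protease that trims the invariant chain, had 17.2, 18.9 and 9.68 CPM in KO and 95.4, 14.7, 17.9 and 15.8 CPM in WT. Its log2 fold change of -1.23 (-3.16 to 0.70) went to -0.07 without wt_284. Ifi30, a thiol reductase of the same compartment, had -2.32 (-6.23 to 1.58), and -0.71 without wt_284. Cd86, a co-stimulatory ligand, had 0.58 (-0.28 to 1.45).

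Of 14 regulators, 0 passed, with 6 positive and 8 negative values and a median of -0.02. Ciita, the class II trans-activator, had 6.72, 9.69 and 5.35 CPM in KO and 7.64, 6.04, 7.49 and 3.34 CPM in WT. Its lowest level was in wt_312, the library in which H2-Aa and H2-Ab1 were lowest. Its highest level was in ko_314, the library in which Cd74 and H2-DMa were lowest. The log2 fold change of Ciita was 0.24 (-0.81 to 1.30). Nlrc5, the class I trans-activator, had 156, 178 and 151 CPM in KO and 126, 140, 178 and 215 CPM in WT, with a log2 fold change of -0.03 (-0.43 to 0.38). Its highest level was in wt_312, where the class I level was lowest. Rfx5, a subunit of the X box complex, had 0.21 (-0.18 to 0.60), Irf1 had -0.15 (-0.54 to 0.24), Creb1 had -0.21 (-0.58 to 0.16), and the interferon-gamma receptor chains Ifngr1 and Ifngr2 had -0.18 (-0.63 to 0.27) and -0.69 (-1.68 to 0.29). Single libraries moved these values: Irf1 was at -0.024 without wt_284, Creb1 at -0.037 without wt_312, Ifngr1 at 0.053 without wt_284, and Ifngr2 at -0.32 without wt_284 and -1.02 without ko_306.

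Likeness to a class level was measured as the root mean square distance between profiles of log2(CPM + 1), each centred over the 7 libraries. Among 9846 other genes with a mean of at least 10 CPM, those nearest to the class I level were Ino80d (0.03), Idh3b (0.04), Qrich1 (0.04), Iws1 (0.04) and Anapc5 (0.05), against a median distance of 0.28. Ino80d belongs to a chromatin remodelling complex and Idh3b to the citric acid cycle. Nearest to the class II level were Ago2 (0.05), which binds small RNAs, Mtpn (0.08), Hace1 (0.08), Denn2b (0.09) and Stard10 (0.10), against a median of 0.43. The class II members themselves lay at 0.34 (Cd74) to 0.57 (H2-Aa) from their own class level, farther than the class I members H2-D1 (0.21) and B2m (0.32) lay from it, and the class I members at 0.05 (H2-K1) to 0.21 (H2-Q7) from theirs, although each member enters its level. With 7 libraries that share 1 scaling, these distances are a description.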

How the data were processed

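RNA was made into stranded total RNA libraries per the labels' protocols. The deposited values are estimated counts per gene, given as whole numbers. Per the submitters' processing notes, the tools were cutadapt and Salmon (versions not given). The annotation and the step to gene level are not stated there. Each of the 7 value columns carries the name of 1 sample. Of the gene identifiers 98.1% had the same version in GENCODE M21. H2-D1 did not and was matched without its version.

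The whole table was fitted by edgeR's robust quasi-likelihood test (version 4.0.16, R 4.3.3) for KO minus WT, after filterByExpr and with TMM factors, and p-values were adjusted by the Benjamini-Hochberg method. The fit was tested on simulated data. Standard errors are the log2 fold change over the square root of F. Class levels are mean log2(CPM + 1). The members and lists were chosen with earlier results of these data known. Named besides the members are 10 regulators and loading genes whatever their p (1 of them is not reported here), up to 3 further genes of each list by p, and the 5 genes nearest each class level. Further genes in the closing section were chosen after their values were seen. Marker sums leave out 1 erythroid marker that the table does not list under its symbol. The alternatives were DESeq2 1.42.0, limma-voom (limma 3.58.1) with quality weights, RLE factors, no filter, 1 CPM in 3 libraries, a threshold of 0.1, leaving out each mouse, and, for class levels, summed CPM, a pseudocount of 0.5 CPM and leaving out B2m and Cd74. Mice are the replicates, and the labels give no batch or litter.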

Additional observations from a re-analysis of the deposited data

Results flagged for a closer look

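Of 36 values screened, 2 had a WT library far from the other 3, where chance flags about 1 in 20 groups. Ctss was at 95.4 CPM in wt_284, while the next highest WT library had 17.9 CPM. Creb1 was at 201 CPM in wt_312, while the next highest WT library had 141 CPM.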

How the results depend on the processing

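No member was called in any of the 12 alternatives fitted across all genes. The number of genes called, 1 in edgeR, was 10 with DESeq2, 81 with no filter on low counts, 0 with limma-voom (469 at an unadjusted p under 0.05) and 1 to 3 when a mouse was left out. Limma-voom gave Emcn a log2 fold change of -8.32 and no call (adjusted p 0.981, against 3.4e-36 to 0.981 over the alternatives). B2m, H2-K1, H2-D1, H2-Q7, Cd74 and H2-Eb1 kept their sign in all 12. With a mouse left out, H2-T23 ran from -0.081 to 0.038, H2-Aa from -0.011 to 0.50, H2-Ab1 from -0.58 to 0.12, H2-DMa from -0.26 to 0.32, Nlrc5 from -0.13 to 0.14, Ciita from -0.0028 to 0.44, Tap2 from -0.14 to 0.10, Psmb8 from -0.060 to 0.12 and Ifngr1 from -0.29 to 0.053. Limma-voom turned H2-DMa to -0.083, Nlrc5 to 0.089 and Psmb8 to -0.047, and the filter of 1 CPM in 3 libraries turned H2-T23 to 0.0062 and Tap2 to 0.010. The cause was not tested. Class levels moved by less than their spread between libraries in every alternative. The class II difference ran from -0.46 to -0.08 with a mouse left out. No paired analysis was possible because the labels do not record which mice shared a litter, and the groups share no replicate number. The low counts of H2-Eb1 and of H2-Aa and H2-Ab1 in wt_312 limit their precision.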

Other observations

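The pseudogene H2-T-ps, which shares 12.4% of the 31-base stretches of H2-T23, had 17, 0 and 0 counts in KO and 23, 20, 0 and 0 counts in WT. Cd1d2, which encodes a lipid-presenting relative of class I, had 15, 5 and 2 counts in KO and 8, 9, 4 and 54 counts in WT, with the highest level (6.93 CPM) in wt_312. H2-Q1 and H2-Q2 had 0 counts in all 7 libraries. Marchf1, a ubiquitin ligase that lowers surface class II, had 2.24, 2.39 and 0 CPM in KO and 25.6, 1.23, 10.2 and 0 CPM in WT. The ratio of H2-D1 to H2-K1 in CPM was 0.75, 0.59 and 0.68 in KO, and 1.05, 0.76, 0.74 and 0.68 in WT, with wt_284 highest.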
